A study of Mus musculus with 24 samples.

Results

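The potassium channel genes described here are the 72 genes whose mouse symbol has the form Kcn, letters and a number, leaving out Kcnj13, and whose mean level was at least 1 CPM over 24 hippocampal RNA-seq libraries. CPM is the count of a gene scaled to a library total of 1000000 counts. Of the 51912 genes in the deposited count table, 91 had such a symbol, and 19 of these fell under the floor. The last gene inside it was Kcnmb1 (1.01 CPM) and the first outside it was Kcne4 (0.842 CPM).

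The libraries came from the ventral and the dorsal hippocampus of 12 C57BL/6J mice, 6 sired by nicotine-treated males and 6 by saline-treated males. The offspring's own groups were nicotine-sired males, nicotine-sired females, saline-sired males and saline-sired females, with 3 animals (A, B and C) in each. The number in the library titles was 492 for nicotine-sired males, 493 for nicotine-sired females, 497 for saline-sired males and 499 for saline-sired females. Its meaning is not stated in the labels, and whatever it stands for, such as a litter, cannot be told apart from sire treatment and sex. The sources used here do not give the dose and length of the nicotine treatment or the age of the offspring. Nothing in the labels says whether the 3 animals of a group had different sires. The p-values measure only the spread between libraries of these animals.

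Potassium channels let potassium ions leave or enter the cell, and so set the resting potential, repolarise the membrane after each action potential and limit repetitive firing. Voltage-gated (Kv) channels open on depolarisation and work with cytoplasmic and membrane partner subunits. Inward rectifiers and two-pore-domain channels carry current near rest, and calcium-activated and sodium-activated channels open as those ions enter during activity. In hippocampal pyramidal neurons, A-type Kv4 channels in dendrites, Kv7 channels of the M-current and G-protein-gated inward rectifiers are among the best known brakes on excitability, while glia use inward rectifiers to take up potassium.

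Library totals lay between 32049770 and 47486547 counts (median 39578834). All 72 genes passed the low-count filter in each fit, so none was left untested. The 6 ventral hippocampus markers were all higher in the ventral libraries. Choroid plexus RNA was uneven: Ttr, its most abundant transcript, was between 1028 and 5283 CPM in 8 libraries of 6 animals and at most 142 CPM in the other 16. These were the dorsal libraries of nicotine-sired males A and B, saline-sired male A and saline-sired female C, and both libraries of nicotine-sired females B and C. Nicotine-sired female A stood apart in neocortex and amygdala markers, whose mean level was 4.80 log2 CPM in its ventral and 5.17 in its dorsal library, against at most 4.20 and 3.92 in the other animals. Antisense counts, taken over 599 noncoding genes lying opposite 555 coding genes, were between 0.424% and 0.506% of the coding counts in ventral nicotine-sired male libraries, against 0.354% or less in ventral libraries of the other groups.

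Per length of exon, the most abundant member over all 24 libraries was Kcnab2, a cytoplasmic Kv beta subunit, with a mean of 123 CPM per kb. It was followed by Kcnip2 (45.2 CPM per kb), a calcium-binding KChIP subunit of Kv4 channels, and Kcnk1 (36.7 CPM per kb), the two-pore-domain channel TWIK-1. The lowest was the two-pore-domain channel Kcnk9 (0.216 CPM per kb). Summed per kb, Kv beta subunits made up 19.9% of the level of all 72 genes, inward rectifiers 17.1%, KChIP subunits 11.8% and Kv3 channels 9.32%. In the KChIP sum, Kcnip3 came next after Kcnip2, with 25.5 CPM per kb.

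**Figure D1:**
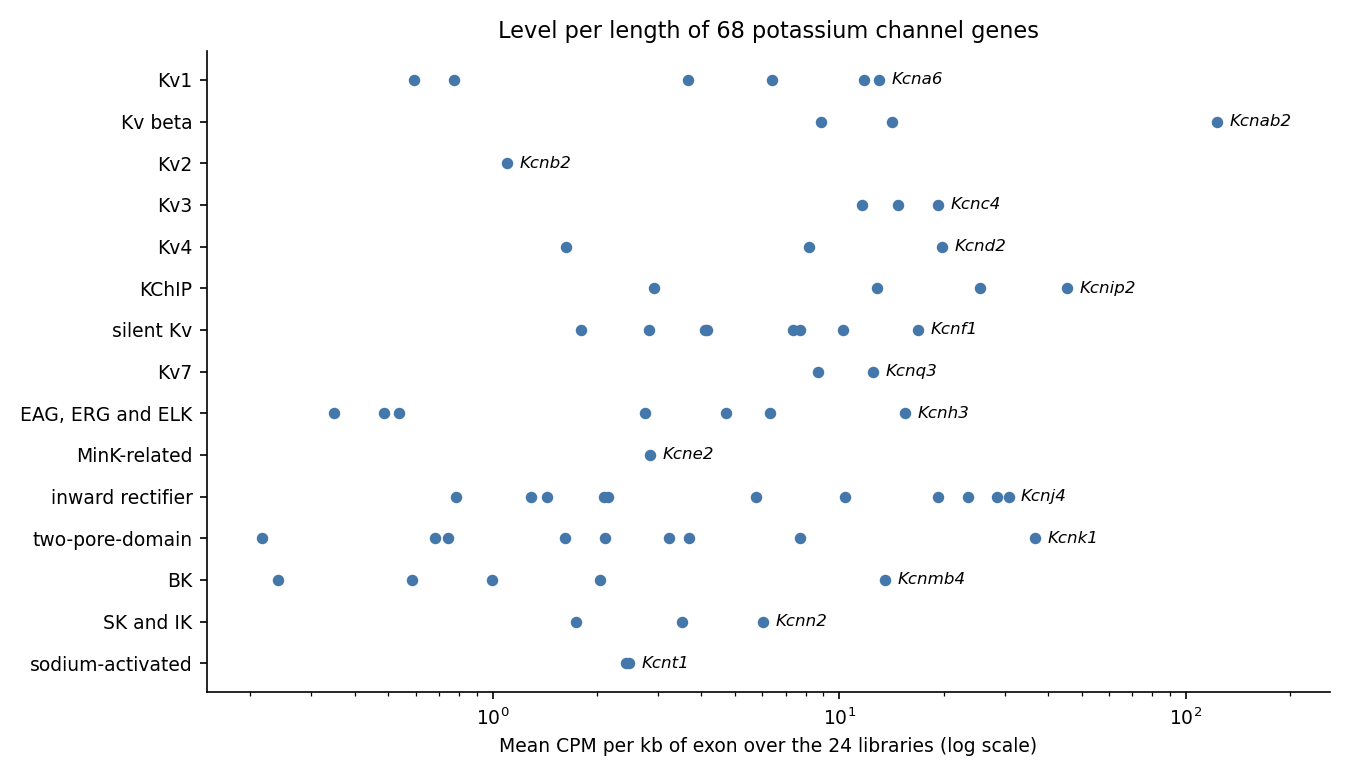
Mean level over the 24 libraries in CPM per kb of exon (log axis) for 68 of the genes, 1 point per gene, by family; the highest gene drawn in each family is named. Kcnab2 lies highest at 123 CPM per kb, and the 11 inward rectifiers reach 30.8 CPM per kb at Kcnj4.

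The first comparison asked which potassium channel genes differ between the 2 ends of the hippocampus. Ventral over dorsal, 47 of the 72 genes differed, 20 higher and 27 lower, by edgeR's quasi-likelihood test with an adjusted p under 0.05. Over all 19849 genes tested, 29.2% were called, 14.3% higher and 14.9% lower, and 33.6% among the 15495 genes with a mean of at least 1 CPM, so the share among the channel genes (65.3%) was above both. The differences were modest: the median size of a called difference was 0.48 on the log2 scale, and only Kcnj16 (1.05 ± 0.15, SE) and Kcne2 (-3.05 ± 0.94) exceeded a 2-fold change. The median over the 72 genes was -0.02, beside -0.01 over all genes. By the fitted log2 differences, which use TMM scaling, ventral minus dorsal had 1 sign in all 4 title groups for 46 of the 47 genes. The exception was Kcna1. Among the 47 called genes, 9 were higher and 12 lower ventrally in all 12 animals. The same libraries gave the calls, and the share of all genes that keep 1 direction in every animal was not taken. In bulk tissue, fewer cells of a type and less RNA per cell cannot be told apart.

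**Figure D2:**
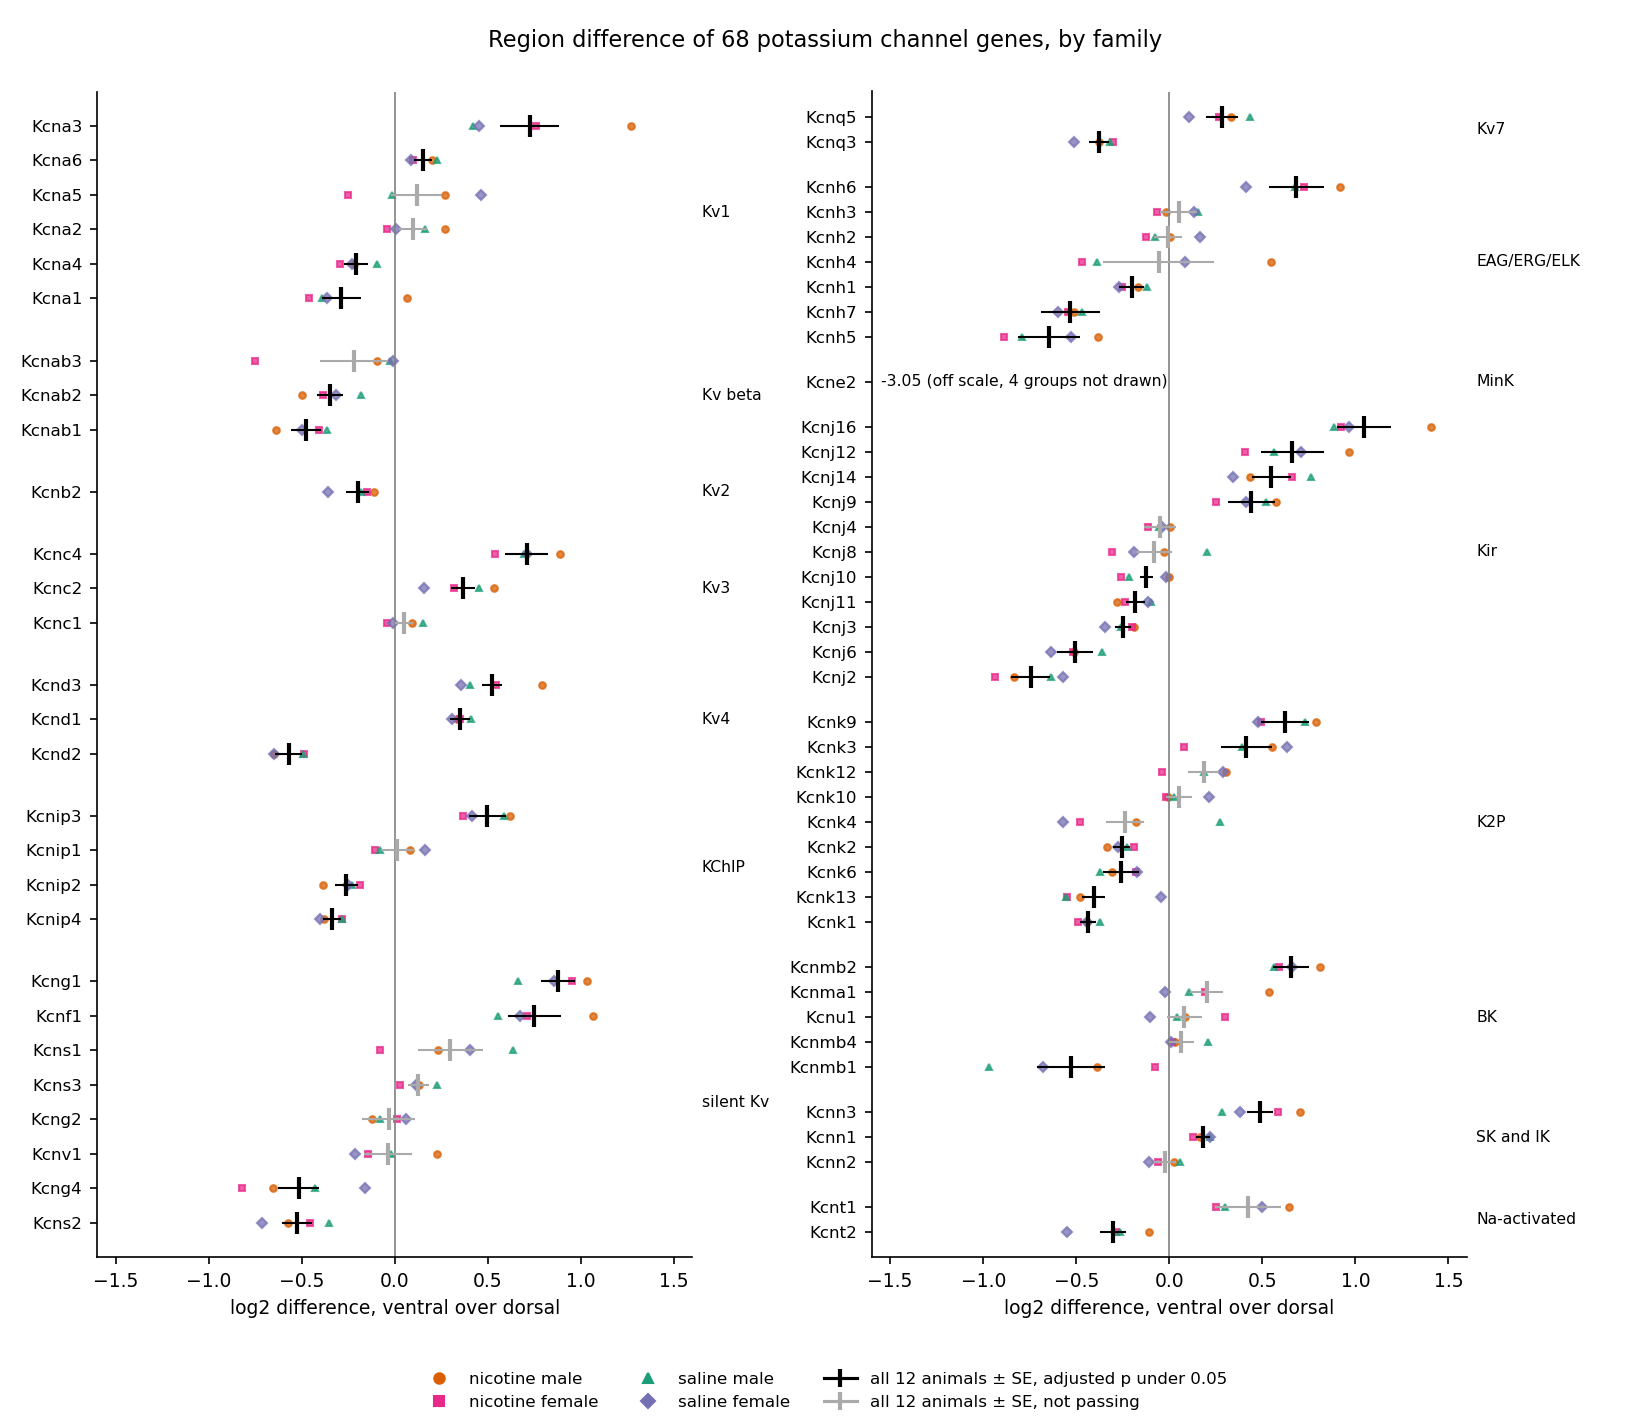
Log2 difference, ventral over dorsal, for 68 of the genes by family. Wide ticks with bars are the estimate over all 12 animals ± SE (black where the adjusted p was under 0.05), and coloured points are the 4 title groups; most families hold genes on both sides of 0, and Kcnj16 lies farthest right at 1.05.

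Among pore-forming Kv channels, the A-type Kv4 family differed in all 3 members and in both directions. Kcnd3, which encodes Kv4.3, had 73.5 to 111 CPM (median 93.5) in ventral libraries, against 49.5 to 85.8 CPM (median 63.6) in dorsal libraries. Kcnd2, which encodes Kv4.2, the main A-type channel of CA1 dendrites, had 72.4 to 97.1 CPM (median 80.7) in ventral libraries, against 85.4 to 148 CPM (median 120.3) in dorsal libraries. The groups overlapped for both, but Kcnd3 was higher and Kcnd2 lower ventrally in every animal. The log2 differences were 0.52 ± 0.05 (SE) for Kcnd3 (adjusted p = 5.77e-07, edgeR) and -0.57 ± 0.07 for Kcnd2 (adjusted p = 6.68e-06, edgeR). Kcnd1, the third member, was also higher (0.35 ± 0.05), with 7.77 to 11.2 CPM ventrally and 5.78 to 9.15 CPM dorsally.

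Because Kcnd2 and Kcnd3 moved in opposite directions, the 250 bases before their RefSeq starts are shown (GRCm38.p6, 5′ to 3′ on the gene's strand, capitals marking a match on either strand to the GC box GGGCGG, the TATA box TATAAA, the cAMP response element TGACGTCA or the E-box CACGTG). The Kcnd2 window lies at chr6:21215096-21215345 (plus strand, 68.8% G or C) and the Kcnd3 window at chr3:105451640-105451889 (plus strand, 62.8% G or C).
Kcnd2: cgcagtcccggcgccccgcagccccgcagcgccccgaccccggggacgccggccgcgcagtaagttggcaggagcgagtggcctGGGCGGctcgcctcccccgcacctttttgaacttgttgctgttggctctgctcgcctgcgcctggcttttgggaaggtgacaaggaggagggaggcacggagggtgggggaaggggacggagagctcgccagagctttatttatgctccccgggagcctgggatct
Kcnd3: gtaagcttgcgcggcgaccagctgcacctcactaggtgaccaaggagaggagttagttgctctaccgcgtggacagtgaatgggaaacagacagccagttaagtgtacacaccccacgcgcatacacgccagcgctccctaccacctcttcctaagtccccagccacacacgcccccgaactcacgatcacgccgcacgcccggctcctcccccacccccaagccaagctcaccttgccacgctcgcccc
The Kcnd2 window holds 1 GC box (GGGCGG) and the Kcnd3 window none of the 4 motifs, which says only that these letters are not in this window. Windows were found for 50 of the 72 genes (74 windows). A GC box was in 33 of these 74 (44.6%), beside 32.7% of all 32851 mouse windows, and TATAAA in 2 (2.7%), beside 12.4%. CACGTG was in 4 of the 74 (5.41%), beside 6.02%, and TGACGTCA in 0, beside 1.55%.

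In the Kv3 family, whose fast channels allow rapid firing, 2 of 4 members were higher ventrally. Kcnc4 (Kv3.4) had 61.6 to 109 CPM (median 86.9) in ventral libraries, against 33.6 to 78.8 CPM (median 48.6) in dorsal libraries, a log2 difference of 0.71 ± 0.12 (SE). Kcnc2 (Kv3.2), best known from interneurons, was higher by 0.37 ± 0.06, in 11 of 12 animals. Kcnc1 (Kv3.1) was 0.05 ± 0.05 and did not pass.

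The Kv1 family, the delayed rectifiers and axonal channels, had 2 members higher, 2 lower and 2 not passing. Kcna3 was higher (0.73 ± 0.16, SE), at 0.928 to 2.70 CPM ventrally and 0.621 to 2.1 CPM dorsally, and Kcna6 slightly so (0.15 ± 0.05). Kcna4 (-0.21 ± 0.07) and Kcna1 (-0.29 ± 0.11) were lower. Kcna6 was lost without nicotine-sired female B (adjusted p = 0.0566), saline-sired male A (0.0584) or saline-sired female A (0.0680), and Kcna4 without nicotine-sired male B (0.0599), saline-sired male B (0.0514) or saline-sired female A (0.0531). Kcna1 was the only called gene whose sign differed in a title group, being 0.07 in nicotine-sired males, where ventral library A had 48.2 CPM and libraries B and C had 19.5 and 25.9 CPM. Of 12 refits that each left out an animal, Kcna1 kept its call only in that without nicotine-sired male A, and the adjusted p was 0.0537 to 0.116 in the other 11. In the Kv2 family, Kcnb2 was lower (-0.20 ± 0.06), a call lost without nicotine-sired male C (adjusted p = 0.0528), nicotine-sired female C (0.0814) or saline-sired male A (0.0565).

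Silent Kv subunits, which make no channel alone and modify Kv2 channels, included 2 of the largest ventral gains. Kcng1 had 43.9 to 71.7 CPM (median 61.2) in ventral libraries, against 23.5 to 44.4 CPM (median 31.5) in dorsal libraries. The ranges met only at their ends, since the lowest ventral library lay just under the highest dorsal one, and each animal was higher ventrally (0.88 ± 0.09, SE, adjusted p = 9.11e-07, edgeR). Kcnf1 had 71.1 to 134 CPM ventrally and 37.1 to 96.8 CPM dorsally (0.75 ± 0.14, higher in 11 of 12 animals). Kcns2 was lower (-0.52 ± 0.08), at 14.3 to 22.7 CPM ventrally and 18.7 to 34.2 CPM dorsally, and Kcng4 was lower too (-0.52 ± 0.11). The other 4 silent subunits, Kcng2, Kcns1, Kcns3 and Kcnv1, did not pass.

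The cytoplasmic partners of Kv channels were mostly lower ventrally. Of the Kv beta subunits, which bind Kv1 channels, Kcnab1 had 83.6 to 118 CPM (median 104) in ventral libraries, against 91.4 to 173 CPM (median 148) in dorsal libraries (-0.48 ± 0.08, SE). Kcnab2, the most abundant member per length, had 494.8 to 804 CPM ventrally and 617.5 to 938 CPM dorsally (-0.35 ± 0.07). Kcnab3 (-0.22 ± 0.18) did not pass. Among KChIP subunits, Kcnip4 (-0.34 ± 0.05) and Kcnip2 (-0.26 ± 0.06) were lower, as Kcnd2 was, while Kcnip3 was higher (0.50 ± 0.10), as Kcnd3 and Kcnd1 were. Kcnip4 lay at 37.7 to 46.7 CPM ventrally and 42.8 to 61.0 CPM dorsally and was lower in 12 of 12 animals. Kcnip3, also known as the calcium sensor DREAM or calsenilin, lay at 85.1 to 134 CPM ventrally and 58.4 to 107.5 CPM dorsally.

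Of the Kv7 channels that carry the M-current, Kcnq3 was lower ventrally in every animal, with 139.7 to 195 CPM (median 158) in ventral libraries, against 174 to 245 CPM (median 210.3) in dorsal libraries (-0.38 ± 0.06, SE). Kcnq5 was higher by 0.28 ± 0.09, a call lost without nicotine-sired female B (adjusted p = 0.0625) or saline-sired male A (0.0537). Among the EAG, ERG and ELK channels, Kcnh5 (-0.65 ± 0.17) and Kcnh7 (-0.53 ± 0.16) were lower in all 12 animals. Kcnh6 was higher (0.68 ± 0.15). Kcnh1 was also lower (-0.20 ± 0.07), a call lost without nicotine-sired male B (adjusted p = 0.0571) or C (0.0628), saline-sired male A (0.0577) or C (0.0505), or saline-sired female A (0.0746). Kcnh2, Kcnh3 and Kcnh4 did not pass. Kcnh7 shares 696 bp of exon with the coding gene Gca on the opposite strand, which was also lower (-0.22). The sources used here do not give the strand setting of the counting, so Kcnh7, and likewise Kcna6 and Kcnj3, which have noncoding genes opposite 2355 bp and 1621 bp of their exons, may share reads with their partners. Other called genes with such partners include Kcnd3 (165 bp), Kcnab1 (201 bp) and Kcnk3 (229 bp). The region differences of these partners were 0.58, -0.80 and 0.01 in that order.

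The inward rectifiers split between the regions, with 4 of 11 members higher ventrally, 5 lower and 2 not passing. Kcnj16, which encodes Kir5.1, a subunit that joins Kir4.1 in glia, had 25.1 to 35.1 CPM (median 30.4) in ventral libraries, against 9.30 to 23.4 CPM (median 13.3) in dorsal libraries. Kcnj2, which encodes the strong rectifier Kir2.1, had 2.88 to 7.23 CPM (median 6.15) ventrally, against 7.76 to 14.7 CPM (median 9.07) dorsally. These 2 genes and Kcnk1 were the only members whose ventral and dorsal libraries did not overlap, 1 higher and 2 lower, beside 0.519% and 0.368% of all genes in those directions. The log2 differences were 1.05 ± 0.15 (SE) for Kcnj16 (adjusted p = 3.42e-05, edgeR) and -0.75 ± 0.10 for Kcnj2 (adjusted p = 1.49e-05, edgeR). Kcnj16 and Kcnj2 are neighbours on chromosome 11, 38.2 kb apart and on the same strand.

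Other Kir2 genes did not follow Kcnj2: Kcnj12 (0.66 ± 0.17, SE) and Kcnj14 (0.55 ± 0.10) were higher in 12 of 12 animals, and Kcnj4 (-0.05 ± 0.08), the most abundant inward rectifier per length, did not pass. The G-protein-gated channels also divided. Kcnj3 (GIRK1) had 97.5 to 135 CPM (median 113) in ventral libraries, against 109 to 146 CPM (median 134) in dorsal libraries (-0.25 ± 0.04), and Kcnj6 (GIRK2) had 9.16 to 18.4 CPM ventrally, against 14.5 to 22.1 CPM dorsally (-0.51 ± 0.10). Both were lower in each animal, with overlapping ranges. Kcnj9 (GIRK3) was higher in 12 of 12 animals (0.44 ± 0.13), with 73.0 to 122.5 CPM ventrally and 52.0 to 122 CPM dorsally. Without saline-sired female A its adjusted p was 0.0556, and it was 0.0537 when the choroid plexus marker level entered the fit. The ATP-sensitive pair Kcnj11 (Kir6.2, -0.18 ± 0.05) and Abcc8, its sulphonylurea receptor subunit (-0.49 ± 0.04), were both lower. Kcnj11 lost its call without saline-sired male B (adjusted p = 0.0611). Kcnj8 and its partner Abcc9 did not pass (-0.08 ± 0.10 and -0.07 ± 0.08).

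Kcnj9 and Kcnj10 stand back to back on chromosome 1, 11.9 kb apart. Kcnj10 encodes Kir4.1, the main potassium uptake channel of astrocytes. It was slightly lower ventrally (-0.12 ± 0.04, SE), with 133.5 to 160.3 CPM (median 147) in ventral libraries and 131 to 191 CPM (median 159.7) in dorsal libraries, and lower in 8 of 12 animals. Mean CPM of Kcnj10 was 182.2 dorsally and 152.8 ventrally in nicotine-sired females, and 173.5 and 148.2 in saline-sired males. It was 145 and 146.9 in nicotine-sired males, and 143.6 and 144.4 in saline-sired females, with no fall in CPM. The groups with a fall were also the higher dorsal groups in its treatment-by-sex call below. The 250 bases before each start are shown because these neighbours were called in opposite directions over all 12 animals (GRCm38.p6, capitals as above). The Kcnj9 window lies at chr1:172329323-172329572 (minus strand, 52% G or C) and the Kcnj10 window at chr1:172340960-172341209 (plus strand, 62% G or C).
Kcnj9: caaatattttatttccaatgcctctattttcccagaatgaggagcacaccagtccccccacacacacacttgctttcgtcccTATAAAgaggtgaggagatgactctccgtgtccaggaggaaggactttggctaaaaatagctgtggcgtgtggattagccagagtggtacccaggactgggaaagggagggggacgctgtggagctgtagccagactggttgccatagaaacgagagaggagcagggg
Kcnj10: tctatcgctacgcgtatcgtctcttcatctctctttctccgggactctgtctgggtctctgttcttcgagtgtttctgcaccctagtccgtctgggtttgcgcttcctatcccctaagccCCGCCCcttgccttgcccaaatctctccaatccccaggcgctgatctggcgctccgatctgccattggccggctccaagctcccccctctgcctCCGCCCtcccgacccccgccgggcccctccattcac
The Kcnj9 window holds 1 TATAAA match and no GC box, and the Kcnj10 window 2 GC boxes on the opposite strand and no TATAAA. Opposite calls of neighbours were also seen for Kcna1 (lower) and Kcna6 (higher), 61.9 kb apart on chromosome 6, and for Kcnj11 (lower) and Kcnj14 (higher), 269 kb apart on chromosome 7. The calls of Kcna1, Kcna6 and Kcnj11 were each lost in refits without single animals, as given above.

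**Figure D3:**
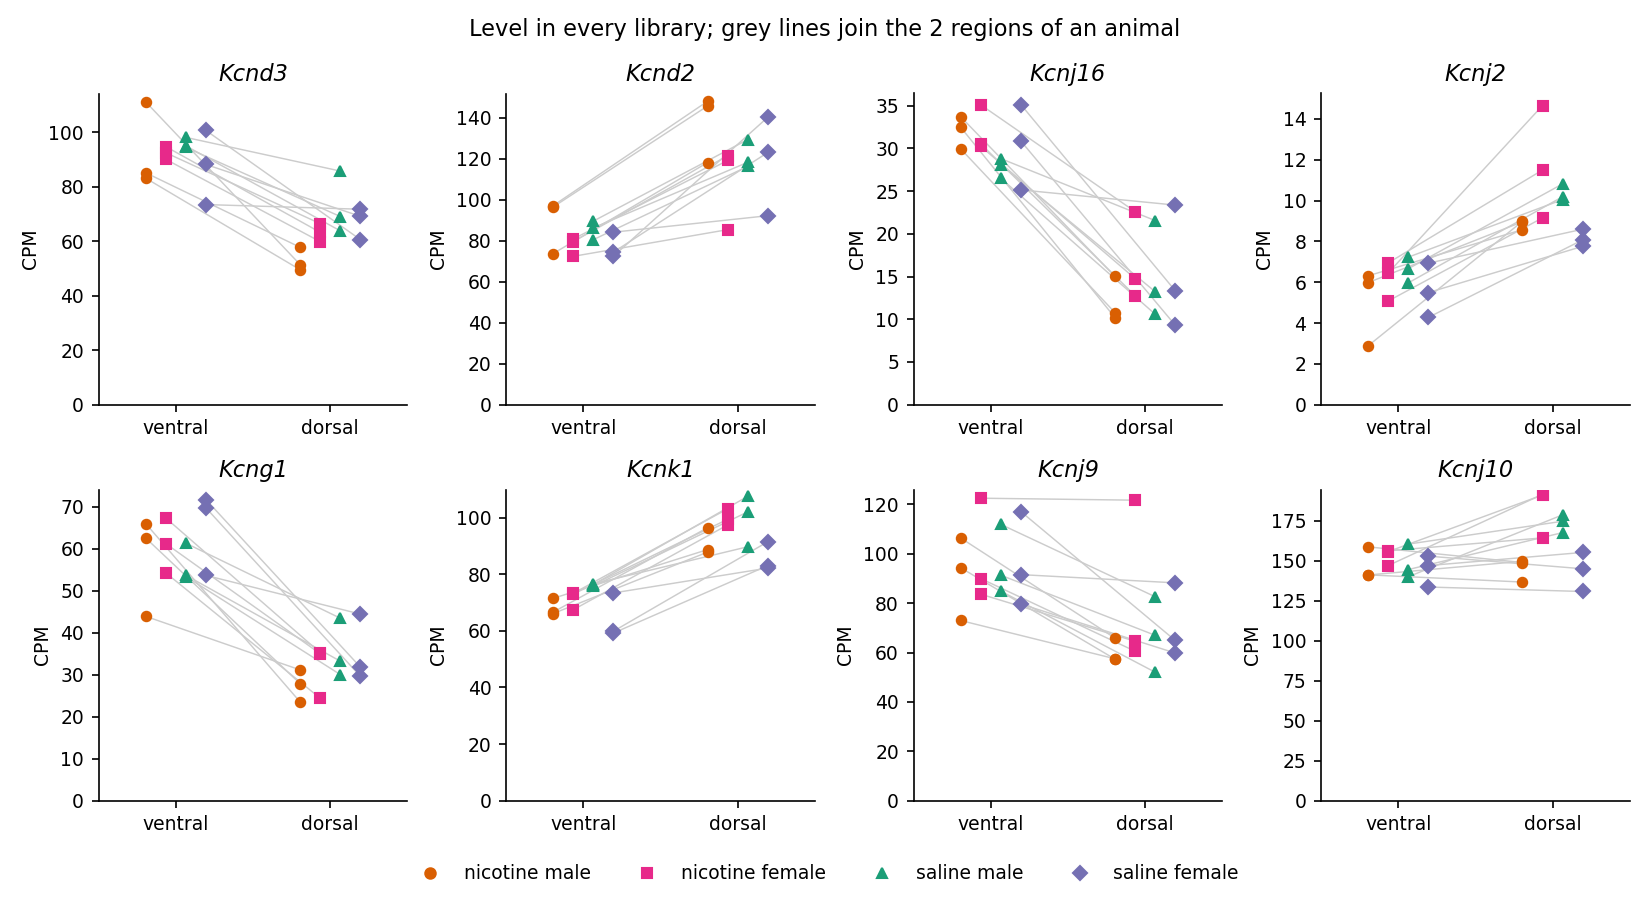
Level in CPM in each of the 24 libraries for 8 genes, ventral left and dorsal right, with symbols for the 4 title groups and grey lines joining the libraries of an animal. Kcnj16, Kcnj2 and Kcnk1 do not overlap between the regions, and Kcnj10 overlaps widely.

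Among the two-pore-domain channels, which give leak currents, 2 of 9 members were higher ventrally and 4 lower. Kcnk1 (TWIK-1) had the smallest p-value of all 72 genes, with 59.2 to 76.6 CPM (median 72.2) in ventral libraries, against 82.2 to 107.5 CPM (median 93.9) in dorsal libraries. Every ventral library lay below every dorsal one (-0.44 ± 0.04, SE, adjusted p = 2.78e-07, edgeR). The mechanosensitive channel Kcnk2 (TREK-1) was lower in 12 of 12 animals (-0.26 ± 0.04), at 29.5 to 42.4 CPM ventrally and 36.4 to 51.2 CPM dorsally. Kcnk13 (THIK-1, in the brain best known from microglia) was lower by 0.41 on the log2 scale (-0.41 ± 0.06), and Kcnk6 by 0.26 (-0.26 ± 0.10). Kcnk6 lost its call without any 1 of the saline-sired males A, B and C, nicotine-sired male B, nicotine-sired female C or saline-sired females A and B (adjusted p = 0.0522 to 0.133). The acid-sensitive channels Kcnk9 (TASK-3, 0.62 ± 0.13) and Kcnk3 (TASK-1, 0.41 ± 0.14) were both higher. Kcnk3 lost its call without nicotine-sired male A or C, saline-sired female A or B, or saline-sired male A or B (adjusted p = 0.0597 to 0.0823). Kcnk4, Kcnk10 and Kcnk12 did not pass.

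Calcium-activated channels leaned to the ventral side in the SK family, whose channels give the afterhyperpolarisation. Kcnn3 (SK3) had 17.9 to 28.7 CPM (median 20.4) in ventral libraries, against 11.8 to 19.8 CPM (median 14.7) in dorsal libraries (0.49 ± 0.07, SE, higher in 10 of 12 animals). Kcnn1 (SK1) was higher by 0.18 ± 0.04, and Kcnn2 (SK2) was -0.02 ± 0.06 and did not pass. The BK pore subunit Kcnma1 did not pass (0.20 ± 0.09). Its beta subunit Kcnmb2, which inactivates the channel, was higher in each animal (0.65 ± 0.10), with 2.73 to 4.62 CPM ventrally and 1.74 to 3.33 CPM dorsally. Kcnmb1 was lower (-0.53 ± 0.18) at no more than 1.87 CPM in any library, and its locus overlaps that of Kcnip1 on the opposite strand. That call was lost without nicotine-sired male A or B, nicotine-sired female B, saline-sired male B or saline-sired female A or C (adjusted p = 0.0518 to 0.118). Kcnmb4 and Kcnu1 did not pass. Of the sodium-activated channels, Kcnt2 was lower (-0.30 ± 0.07) and Kcnt1 (0.42 ± 0.18) did not pass.

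Genes that work with these channels but do not carry a Kcn symbol were counted in the same fit. Of 18 partner and anchor genes, 16 were tested, 1 was higher and 3 lower. Dpp10, a membrane partner of Kv4 channels, was higher at 72.6 ± 21.7 CPM ventrally and 40.9 ± 23.2 CPM dorsally (SD, n = 12 each, log2 difference 0.86 ± 0.25, SE). Beside Abcc8, Cntnap2 and Ank3, which cluster Kv1 and Kv7 channels on the axon, were lower by 0.14 on the log2 scale (-0.14 ± 0.05 for each). Among the HCN channels, cation channels opened by hyperpolarisation, Hcn3 (0.44 ± 0.06) and Hcn4 (0.75 ± 0.21) were higher and Hcn2 (-0.12 ± 0.05) did not pass. Of 12 pump and cotransporter genes, Atp1b3 (-0.23 ± 0.04) and the chloride importer Slc12a2 (-0.58 ± 0.11) were lower.

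Markers of cell types differed between the regions as well. All 7 dentate granule cell markers were lower ventrally, with a median of -0.80, and their mean level was 3.63 to 4.78 log2 CPM in ventral libraries and 4.73 to 6.01 in dorsal libraries. All 6 oligodendrocyte markers were lower (median -0.81), 4 of 7 interneuron markers and 2 of 6 astrocyte markers were higher, and none of 4 microglia markers passed. Of the pyramidal cell markers, 3 of 5 for CA1 were lower and 1 higher (median -0.44), 2 of 4 for CA2 were lower (median -0.51), and 2 of 5 for CA3 were lower and 1 higher (median -0.11). With the dentate marker level as a covariate, which nearly separates the regions by itself, 16 of the 72 genes were called, 4 higher and 12 lower. These included 8 of the 47, Kcnd3, Kcng1 and Kcnn3 higher and Kcnk1, Kcnj2, Kcnk2, Kcnh5 and Kcnh7 lower, and 39 of the 47 kept their sign. In that fit Kcnd3 was 0.55 ± 0.11 (SE), Kcng1 0.94 ± 0.18, Kcnk1 -0.40 ± 0.08 and Kcnj2 -0.97 ± 0.20, while Kcnd2 was -0.18 ± 0.10, Kcnab1 -0.01 ± 0.10 and Kcnf1 0.01 ± 0.16. The 8 of the 47 that turned sign there did not pass. Of these, Kcnj12 (-0.25 ± 0.19), Kcnj9 (-0.24 ± 0.15), Kcnk3 (-0.24 ± 0.18), Kcna6 (-0.03 ± 0.08) and Kcnip3 (-0.02 ± 0.13) had been higher, and Kcna4 (0.13 ± 0.10), Kcna1 (0.12 ± 0.18) and Kcnj6 (0.07 ± 0.12) lower. The part of the oligodendrocyte, interneuron, astrocyte and pyramidal cell markers in the result was not tested. Shares of all genes are not given for this or any other refit, so the refit counts do not set the members beside all genes.

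Without the 6 animals rich in Ttr, 33 of the 72 genes were called, 31 of them among the 47, and 46 of the 47 kept their sign. When the choroid plexus marker level entered the fit, 40 genes were called, 39 of them among the 47. Shares of all genes are not given for either fit, so a lower count is not a result about the members. The 8 calls lost with the choroid covariate were those of Kcnj9, Kcnq5, Kcna6, Kcnk3, Kcna4, Kcne2, Kcnmb1 and Kcna1. Kcne2 encodes a MinK-related subunit that is abundant in choroid plexus. In the 8 libraries rich in Ttr it lay between 6.90 and 26.1 CPM, and in the other 16 at no more than 0.63 CPM. Its region difference of -3.05 ± 0.94 (SE) was -0.20 in the same fit (adjusted p = 0.688, edgeR). The call was also lost without nicotine-sired male A (adjusted p = 0.0501) or B (0.0583), nicotine-sired female B (0.0565), saline-sired male A (0.184) or saline-sired female C (0.301). Of the 10 choroid plexus markers, 8 were lower ventrally, with a median of -2.17.

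**Figure D4:**
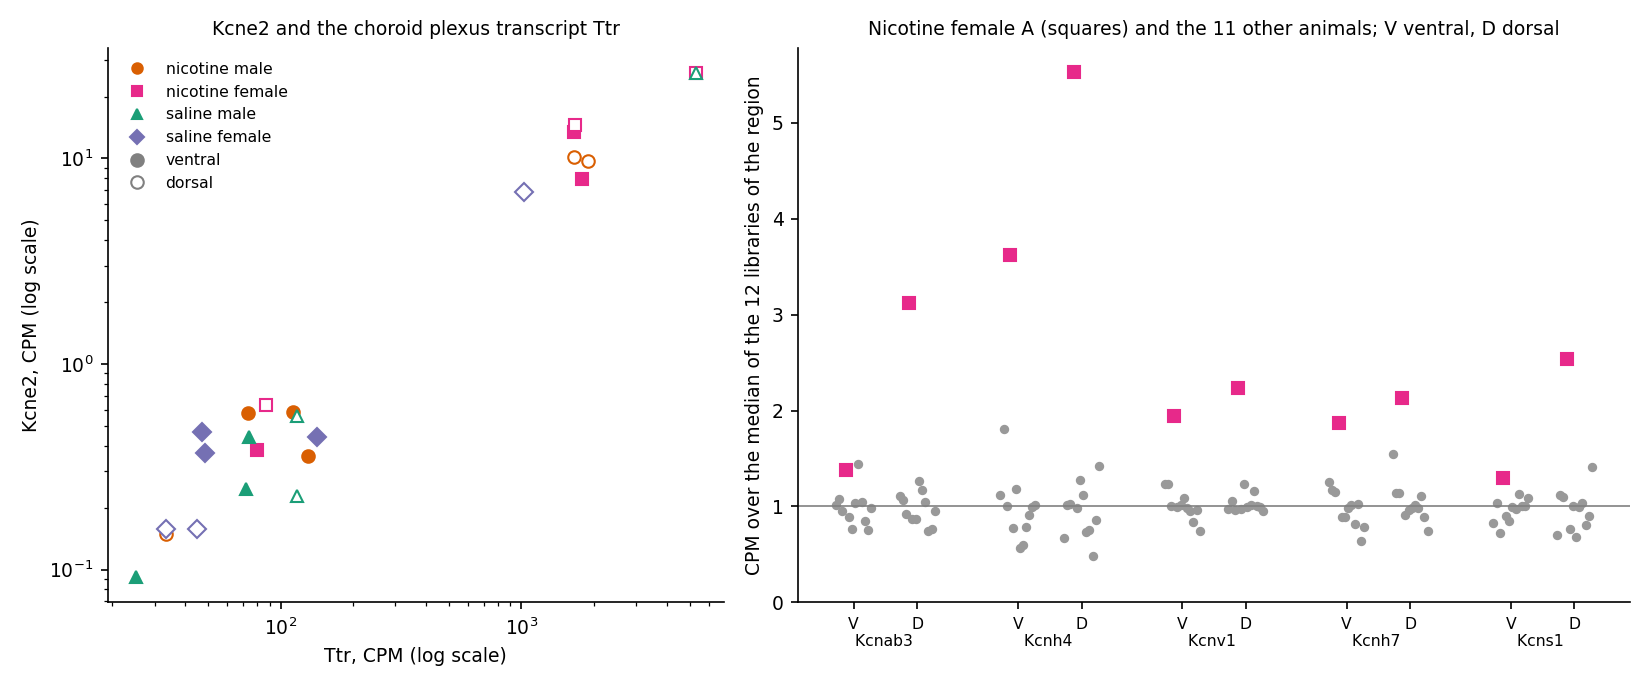
Left, Kcne2 against Ttr in CPM (both log axes) in the 24 libraries, filled for ventral and open for dorsal, where the 8 libraries with at least 1028 CPM of Ttr hold every Kcne2 value above 0.63 CPM. Right, the level of 5 genes divided by the median of the 12 libraries of the region, with nicotine-sired female A as squares, which reaches 73.8 CPM of Kcnab3 in its dorsal library.

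Nicotine-sired female A, the animal high in neocortex and amygdala markers, held the highest ventral value for 17 of the 72 genes (23.6%, beside 7.51% of all genes) and the highest dorsal value for 28 (38.9%, beside 12.5%). Ventrally, nicotine-sired male A held the highest value for more of them, 19 (26.4%), beside 19.1% of all genes. The dorsal library of nicotine-sired female A had 73.8 CPM of Kcnab3, against 17.6 to 30.0 CPM in the other 11. It had 8.32 CPM of Kcnh4, against 0.732 to 2.14 CPM. Kcnv1, another silent subunit, was at 70.7 CPM there, against 30.1 to 39.0 CPM, and Kcnh7 at 93.0 CPM, against 32.4 to 67.5 CPM. After Kcne2, with an SD of 1.88 on the log2 scale within groups, Kcnh4 (0.60), Kcnt1 (0.43) and Kcnab3 (0.43) varied most between libraries of a group. Without nicotine-sired female A, 50 genes differed between the regions, 46 of them among the 47, and Kcnt1 passed (adjusted p = 0.0023, edgeR).

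By title group, the region difference was called for 20 of the 72 genes in nicotine-sired males (9 higher and 11 lower), beside 7.22% of all genes (3.69% higher and 3.53% lower). It was called for 9 in nicotine-sired females (3 higher and 6 lower), beside 4.94% of all genes (2.47% in each direction). The count was 7 in saline-sired males (5 higher and 2 lower), beside 5.24% (2.51% higher and 2.73% lower), and 8 in saline-sired females (1 higher and 7 lower), beside 2.25% (1.04% higher and 1.21% lower). Kcnk1 and Kcng1 were called in all 4. Kcng1 was 1.03 in nicotine-sired males, 0.95 in nicotine-sired females, 0.66 in saline-sired males and 0.86 in saline-sired females. Kcnd3 was 0.79 in nicotine-sired males, 0.55 in nicotine-sired females, 0.40 in saline-sired males and 0.35 in saline-sired females, and was called in the first 3 of these groups. By sire treatment, 30 genes were called in nicotine-sired animals (14 higher and 16 lower), beside 16.9% of all genes (8.72% higher and 8.15% lower), and 28 in saline-sired animals (13 higher and 15 lower), beside 14.5% (6.78% higher and 7.72% lower). Without the animals rich in Ttr the nicotine-sired count was 7, from 2 animals. Dropping an animal could move the second count to 15 (without saline-sired male B or saline-sired female A) or 18 (without saline-sired female B). These counts do not test whether the region difference depends on the sire.

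That question was put to the difference between the 2 region differences, nicotine-sired minus saline-sired. It was called for 0 of the 72 genes and 0 of all 19849 (0%) by edgeR, and for 0 of the 72 by DESeq2. Shares of all genes are given for edgeR only, here and below, so the DESeq2 member counts cannot show an excess. At an unadjusted p under 0.05, 2 members passed by edgeR, beside 945 of all 19849 genes, and 3 members by DESeq2. The 3 smallest p-values belonged to Kcnd3 (0.29 ± 0.11, SE, adjusted p = 0.880), Kcnn3 (0.31 ± 0.14) and Kcng4 (-0.44 ± 0.22), none of which passed.

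The next comparisons asked how sire treatment relates to channel expression in the offspring. In the dorsal hippocampus over both sexes, none of the 72 genes differed between nicotine-sired and saline-sired animals by edgeR or by DESeq2, beside 0.0784% of 19130 genes by edgeR (0.0261% higher and 0.0523% lower). At an unadjusted p under 0.05 there were 5 members by edgeR, beside 2062 of all 19130 genes, and 7 by DESeq2. Those with the smallest p-values included Kcnd3 (-0.25 ± 0.07, SE) and Kcnk2 (0.16 ± 0.05), which did not pass. The median of the 72 genes was 0.06, beside 0.00 over all genes.

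Within males, 1 member, Kcnk2, differed in the dorsal hippocampus (1.39%, beside 1.78% of all genes, 0.47% higher and 1.31% lower), a share near the background. Kcnk2 had 50.6, 45.8 and 51.2 CPM in dorsal libraries of nicotine-sired males, against 39.4, 41.2 and 39.0 CPM in those of saline-sired males. All 3 nicotine-sired males lay above all 3 saline-sired males, whereas nicotine-sired females had 39.4, 37.8 and 36.4 CPM and saline-sired females 37.3, 39.0 and 40.3 CPM. How many of all genes have such groups without overlap was not counted, here or in the treatment comparisons below. The male difference was 0.37 ± 0.07 (SE, adjusted p = 0.0259, edgeR), the female difference -0.05 ± 0.07 (adjusted p = 0.801), and the test between the sexes did not pass (0.41 ± 0.10, adjusted p = 0.0528). Kcnk2 lies at chromosome 1, 189207930 to 189402273 (GRCm38, minus strand), and a noncoding gene, A430027H14Rik, lies opposite 604 bp of its exons.

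The Kcnk2 call in males was lost without nicotine-sired male A (adjusted p = 0.0861) or C (0.103), or without saline-sired male A (0.0931), B (0.0589) or C (0.0795), and the difference stayed between 0.32 and 0.42 in all 12 refits. In ventral libraries Kcnk2 had 36.1, 42.4 and 40.2 CPM in nicotine-sired males, against 34.9, 32.7 and 33.6 CPM in saline-sired males (0.26 ± 0.10, SE, adjusted p = 0.200). Next in the dorsal male comparison, and not passing by edgeR, were Kcnd3 (-0.40 ± 0.10, adjusted p = 0.0700) and Kcna3 (-1.18 ± 0.31, adjusted p = 0.0757). Kcnd3 had 51.4, 57.8 and 49.5 CPM in nicotine-sired males, against 69.1, 63.8 and 85.8 CPM in saline-sired males. Kcna3 had 0.715, 0.649 and 0.621 CPM in nicotine-sired males, against 1.47, 1.14 and 2.1 CPM in saline-sired males. Neither gene overlapped between these groups. DESeq2 called all 3 (adjusted p = 0.0138 for Kcnd3 and 0.0257 for Kcna3).

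In dorsal libraries of females, 0 of the 72 genes passed by edgeR (beside 0.0314% of all genes, 0.0105% higher and 0.0209% lower). At an unadjusted p under 0.05 there were 12 by edgeR, beside 2547 of all 19130 genes. By DESeq2, 3 members passed. These 3, Kcnk13, Kcnj10 and Kcna1, were also the 3 members that the treatment-by-sex test called, all lower, which is 4.17% beside 2.24% of all genes (0.847% higher and 1.39% lower). That test takes the treatment difference in males minus that in females.

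Kcnk13 had 6.97, 6.58 and 5.58 CPM in nicotine-sired males, against 9.26, 8.29 and 7.73 CPM in saline-sired males. Nicotine-sired females had 7.76, 9.72 and 10.6 CPM, against 6.27, 6.18 and 5.03 CPM in saline-sired females. Nicotine-sired animals were thus the lower group in males and the higher in females, without overlap in either sex. The difference between the sexes was -1.01 ± 0.19 (SE, adjusted p = 0.0233, edgeR), from -0.34 ± 0.14 in males and 0.67 ± 0.14 in females, neither of which passed alone. Kcnk13 lies at chromosome 12, 99964499 to 100062682 (GRCm38, plus strand).

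Kcna1, which encodes the axonal channel Kv1.1, showed the same crossing. It had 29.6, 27.4 and 30.0 CPM in nicotine-sired males, against 35.8, 38.4 and 43.1 CPM in saline-sired males, and 33.0, 37.4 and 43.3 CPM in nicotine-sired females, against 31.0, 27.6 and 24.4 CPM in saline-sired females. The groups did not overlap in either sex, and the sexes differed by -0.81 ± 0.16 (SE, adjusted p = 0.0243, edgeR). Kcnj10 had 149, 150 and 137 CPM in nicotine-sired males, against 179, 168 and 175 CPM in saline-sired males. In females it had 191, 164 and 191 CPM in nicotine-sired animals, against 145, 131 and 155 CPM in saline-sired animals, again without overlap. Its difference between the sexes was -0.54 ± 0.11 (adjusted p = 0.0338, edgeR). Kcna1 lies at chromosome 6, 126640397 to 126646384 (minus strand), and Kcnj10 at chromosome 1, 172341210 to 172374085 (plus strand, both GRCm38).

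**Figure D5:**
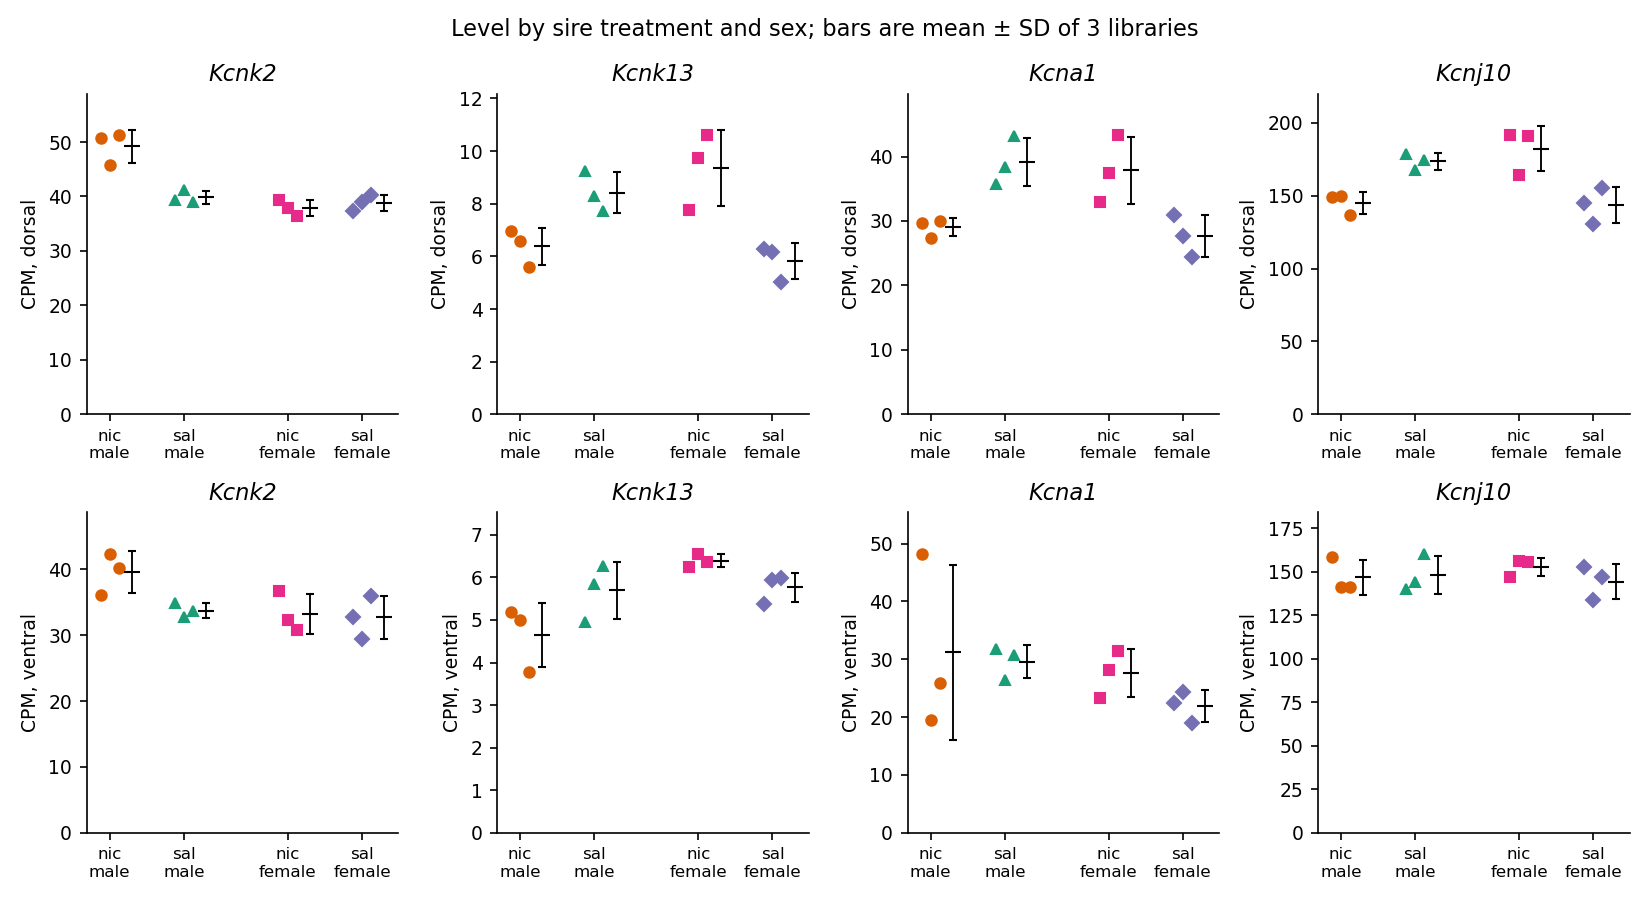
CPM of Kcnk2, Kcnk13, Kcna1 and Kcnj10 in each library of the dorsal (top) and ventral (bottom) hippocampus, nicotine-sired left of saline-sired within each sex, with mean ± SD of 3 libraries beside them. In dorsal libraries Kcnk13, Kcna1 and Kcnj10 are lower in nicotine-sired than saline-sired males and higher in nicotine-sired than saline-sired females, while ventral libraries of nicotine-sired and saline-sired males overlap for all 3.

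These 3 calls rest on few animals. Leaving out nicotine-sired male A or C, nicotine-sired female C, saline-sired male B or saline-sired female B ended all 3. Saline-sired male A also ended the call of Kcnk13, nicotine-sired male B that of Kcna1, and nicotine-sired male B, saline-sired male A or C or saline-sired female A that of Kcnj10. The adjusted p without those animals was 0.05003 to 0.0708 for Kcnk13, 0.0562 to 0.0861 for Kcna1 and 0.0536 to 0.118 for Kcnj10. Over all 12 refits the difference stayed between -1.09 and -0.90 for Kcnk13, -0.88 and -0.70 for Kcna1 and -0.60 and -0.46 for Kcnj10. In the ventral hippocampus the same test gave -0.41 ± 0.18 (SE) for Kcnk13, -0.24 ± 0.38 for Kcna1 and -0.07 ± 0.09 for Kcnj10, and none passed.

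Cell type markers were read in the same test. The mean of the 4 microglia markers lay at 5.30 to 5.42 log2 CPM in dorsal libraries of nicotine-sired males, 5.27 to 5.48 in those of nicotine-sired females, 5.15 to 5.30 in those of saline-sired males and 5.31 to 5.33 in those of saline-sired females, and 1 of the 4 passed, higher. The mean of the 6 astrocyte markers lay at 7.08 to 7.23 log2 CPM in nicotine-sired males, 6.97 to 7.31 in nicotine-sired females, 7.27 to 7.33 in saline-sired males and 7.10 to 7.24 in saline-sired females, and none passed. Of 7 interneuron markers 2 were lower, and of 7 dentate granule cell markers and 4 endothelial markers 1 each was lower. Their part in these 3 genes was not tested. The 10 choroid plexus markers had a median of -3.42 without passing. In a fit that held their level, the 3 genes were again called (-0.92, -0.87 and -0.54 for Kcnk13, Kcna1 and Kcnj10). They were also called with the neocortex and amygdala marker level as a covariate (-1.13, -0.89 and -0.46).

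In the ventral hippocampus over both sexes, edgeR called 0 of the 72 genes, beside 1.75% of 19224 genes (1.1% higher and 0.65% lower). DESeq2 called 4. By edgeR, 12 members had an unadjusted p under 0.05, beside 3015 of all 19224 genes. The smallest p-values belonged to Kcnk12, a silent relative of Kcnk13 (-0.35 ± 0.09, SE, adjusted p = 0.0799), Kcnip4 (0.17 ± 0.05) and Kcna5 (-0.55 ± 0.17), none passing by edgeR. Kcnk12 had 6.11, 6.49 and 5.25 CPM in nicotine-sired males and 6.73, 5.19 and 5.76 CPM in nicotine-sired females, against 6.38, 7.33 and 7.83 CPM in saline-sired males and 7.84, 7.39 and 9.08 CPM in saline-sired females. The groups overlapped only in males. Its adjusted p was 0.0289 by DESeq2 and 0.0225 when the neocortex and amygdala marker level entered the fit. When the antisense share entered instead, the difference was 0.03 (adjusted p = 1). In ventral libraries that share was at least 0.297% in nicotine-sired animals and at most 0.289% in saline-sired animals. That fit can therefore hardly tell the share apart from sire treatment.

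Among ventral libraries of males, 0 genes were called by edgeR (beside 3.21% of all genes, 1.82% higher and 1.39% lower) and 0 by DESeq2. At an unadjusted p under 0.05 there were 9 members in each, by edgeR beside 3042 of all 19224 genes. Kcnip4 (0.23 ± 0.07, SE), Kcnn3 (0.37 ± 0.12) and Kcna5 (-0.67 ± 0.23) came first without passing. Kcnip4 had 46.7, 45.4 and 42.7 CPM in nicotine-sired males, against 40.6, 38.1 and 38.2 CPM in saline-sired males, without overlap. Among ventral libraries of females, edgeR called 0, beside 0.0312% of all genes. By edgeR, 11 members had an unadjusted p under 0.05, beside 2668 of all 19224 genes. DESeq2 called 1, Kcne2. That gene had 0.383, 7.94 and 13.5 CPM in nicotine-sired females, against 0.371, 0.468 and 0.441 CPM in saline-sired females, and the 2 high values are those of the 2 ventral libraries rich in Ttr. Its difference of 4.08 ± 1.02 was -0.19 once the choroid plexus marker level entered the fit.

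Also foremost in ventral libraries of females, without passing, were Kcnmb1 (1.09 ± 0.28, SE, at 1.27, 0.851 and 1.52 CPM in nicotine-sired females against 0.510, 0.686 and 0.529 CPM in saline-sired females) and Kcnt2 (0.45 ± 0.12, at 15.7, 16.4 and 15.5 CPM in nicotine-sired females against 11.9, 13.1 and 9.96 CPM in saline-sired females). Neither overlapped between the groups. The ventral treatment-by-sex test called 0 of the 72 genes by edgeR, beside 1.07% of all genes, and 0 by DESeq2. At an unadjusted p under 0.05 there were 9 by edgeR, beside 2721 of all 19224 genes, and 11 by DESeq2. Kcnn3 (0.56 ± 0.17) and Kcnd1 (0.41 ± 0.14) had the smallest p-values there. Among the partner, HCN, pump and cotransporter genes, the 1 call in any treatment comparison was Slc12a9 in the ventral treatment-by-sex test (0.55, adjusted p = 0.0406, edgeR).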

How the data were processed

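Raw read counts per Ensembl gene were deposited by the authors in 1 table, with 1 column for each of the 24 libraries. Per the labels' protocols, libraries were stranded mRNA, sequenced as single-end reads of 150 bp over 3 lanes. Tools named in the submitters' processing notes are Cufflinks, Cuffdiff 2.2.1.3 and TopHat2 2.1.0, with the builds mm10 and GRCm38 and no roles. Neither the counting tool nor its strand setting is given in the sources used here. CPM values are counts over the column sum. Coordinates and exon lengths came from GENCODE M21 (GRCm38), which held 51633 of the 51912 identifiers and all 72 members, and promoters from RefSeq.

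The test was edgeR's quasi-likelihood test (edgeR 4.0.16 with limma 3.58.1 in R 4.3.3), two-sided and with robust dispersions, after TMM scaling and filterByExpr on the groups. P-values were adjusted by Benjamini-Hochberg across every tested gene, and calls were made under 0.05. Treatment was fitted in each region apart (4 groups, 12 libraries) and region in 1 fit of 24 libraries (8 groups). That region fit held no term for the animal, so both libraries of an animal entered it as if independent. The procedure was tested on simulated counts for the region and for treatment over both sexes. Tests within a sex or between the sexes were not simulated. Simulated libraries were drawn independently, without pairing by animal or uneven tissue. Changes were planted only in genes averaging over 1 log2 CPM, so the rates do not cover the lowest members or these features of the data. Of genes changed by 0.5 on the log2 scale, 94% were called for region, 69% for dorsal treatment and 78% for ventral treatment. False calls made up 4.5%, 5.2% and 6.8% of the calls in the same order.

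Named were the 12 members with the smallest p-values in each direction for the region, the members passing or the 3 with the smallest p-values for treatment, and the 3 highest per length. The other members are given by family. Results for a few members and partner genes are not reported here. The members and lists were chosen with earlier results of these data known. Libraries with the same title prefix were taken as 1 animal. The deviations of the 12 dorsal and ventral pairs had a median correlation of 0.15, from -0.08 to 0.53, with 9 over 0.1. Alternatives were DESeq2 1.42.0 with the Wald test, DESeq2-style size factors, a replicate block, testing with no low-count filter, marker and antisense covariates, other floors, and leaving out each animal. The neocortex and dentate covariates and the fit without animals rich in Ttr were chosen after seeing the data. Figures were drawn with matplotlib 3.10.9.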

Additional observations from a re-analysis of the deposited data

Results flagged for a closer look

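Kcnk13, Kcna1 and Kcnj10 are listed here because the effect of sire treatment in dorsal libraries differed between the sexes by a direct test. The difference, males minus females, was -1.01 for Kcnk13, -0.81 for Kcna1 and -0.54 for Kcnj10 on the log2 scale (adjusted p = 0.0233, 0.0243 and 0.0338, edgeR). In each of the 3 genes every nicotine-sired male lay below every saline-sired male, and every nicotine-sired female above every saline-sired female. The same libraries gave the calls, so this separation is not a further test. The share of all genes separated in this way was not counted. Single libraries were not tested for lying apart from their group, since groups held 3 libraries.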

How the results depend on the processing

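Shares of all genes are not given for the refits below, so their counts do not set the members beside all genes. The region count of 47 genes lay between 39 and 50 when 1 animal was left out. It was 51 with the replicate block for animals (46 of the 47 again, Kcne2 lost), and 16 with the dentate covariate. Counts moved by more than 1.5 times were these. For the region in nicotine-sired animals (30), the dentate covariate gave 15 and the fit without animals rich in Ttr 7, with 25 to 38 over animals left out. For the region in saline-sired animals (28), the dentate covariate gave 8, with 15 to 35 over animals left out. For dorsal males (1), no low-count filter gave 2, DESeq2 3, the replicate block by title letter 0, the antisense covariate 0 and the neocortex covariate 4, with 0 to 2 over libraries left out. For dorsal females (0), DESeq2 gave 3 and the neocortex covariate 1. For the dorsal treatment-by-sex test (3), DESeq2 gave 7 and the neocortex covariate 6, with 0 to 5 over libraries left out (5 without nicotine-sired female A). For ventral libraries over both sexes (0), no low-count filter gave 1, DESeq2 4, the choroid covariate 3 and the neocortex covariate 2, with 0 to 2 over libraries left out. For ventral males (0), the choroid covariate gave 1, with 0 to 2 over libraries left out. For ventral females (0), DESeq2 gave 1, the choroid covariate 3 and the neocortex covariate 1, with 0 to 1 over libraries left out. For the ventral treatment-by-sex test (0), the choroid covariate gave 2, with 0 to 1 over libraries left out.

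Among the genes named by the rule, signs turned in 6 cases. With the dentate covariate these were Kcnip3 (-0.0202) and Kcnj6 (0.0681) by region. Over all 47 genes called by region, 8 turned with that covariate, among them Kcnj12 (-0.25) and Kcnj9 (-0.24). With the antisense covariate, whose ventral values separate the sire treatments, they were Kcnk12 (0.035) and Kcna5 (0.10) in ventral libraries and Kcna5 in ventral males (0.40). With the choroid covariate it was Kcne2 in ventral females (-0.19). Of 964 values of named genes over these settings, these 6 included, 892 kept their direction and side of the threshold, 46 no longer passed and 20 newly passed. Named genes that did not pass count as kept where they again did not pass, so this tally does not measure how firm the calls are. The cause of the changes between settings was not tested. The title letters A to C are shared between groups of different animals and only number them, so the replicate block by letter pairs nothing. The part of depth in the errors was not tested: SEs of the region difference were 0.18 for Kcnmb1, near 1 CPM, and also 0.18 for the more abundant Kcnt1.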
